A study of Mus musculus with 24 samples.

Results

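The 9 genes described here encode the KAT6A histone acetyltransferase, its paralogs KAT6B and KAT7, and the subunits that such enzymes share: the scaffolds *Brpf1*, *Brd1* and *Brpf3*, the chromatin readers *Ing4* and *Ing5*, and the small subunit *Meaf6*. They were chosen by gene symbol, and each of the 9 names matched 1 of the 26411 rows of the deposited count tables. RNA was sequenced from neural stem and progenitor cells (NSPCs) of the dorsal telencephalon of mouse embryos at E12.5. They were cultured under neurosphere conditions and frozen after passaging. The embryos had 2 intact *Kat6a* alleles (*Kat6a*+/+), 1 intact and 1 null allele (*Kat6a*+/-) or 2 null alleles (*Kat6a*-/-). The null allele is constitutive, so that every cell of an embryo carries it, and per the study's methods the mice were kept on a C57BL/6 background. The paper reports that growth form went with genotype. Proliferating *Kat6a*+/- colonies were smaller and tended to attach. *Kat6a*-/- NSPCs made few floating colonies, mostly attached to the plastic and multiplied more slowly. Cells of each genotype were collected after 3 days of growth with FGF2 and EGF (proliferating) or after 3 days on poly-L-ornithine and laminin in medium with 1% serum (differentiating). This gave 6 groups of 4 libraries, 24 in all, each library labelled with its embryo, and 6 embryo labels occur in both conditions. RNA of proliferating and of differentiating NSPCs was extracted with different kits, and the effects of kit and of condition cannot be told apart.

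KAT6A and KAT6B are acetyltransferases of the MYST family that act on lysines of histone H3 at active genes. Each works in a complex of 4 kinds of protein, in which a BRPF scaffold (BRPF1, BRD1 or BRPF3) joins the enzyme to ING4 or ING5, which bind methylated histone H3, and to MEAF6. KAT7, also called HBO1, uses the same BRPF, ING and MEAF6 subunits and can also work with JADE scaffolds, with which it acetylates histone H4. KAT6A is required for haematopoietic stem cells and for patterning of the embryo, KAT6B and BRPF1 for development of the forebrain, and human mutations in KAT6A and KAT6B cause syndromes with intellectual disability.

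The 24 libraries held 7826660 to 40838203 counts, and the lowest count of any of the 9 genes in any library was 148 (*Ing5* in a differentiating *Kat6a*-/- library), so none was near the limit of detection. All 9 genes passed the filter on low counts in every fit. The 9 listed NSPC markers were at or above 1 CPM, the usual unit of a count relative to the library's scaled total, in every group. In differentiating NSPCs they summed to 7353 to 9355 CPM in *Kat6a*+/+ and 9411 to 13760 CPM in *Kat6a*-/- libraries. Of the 9, 3 were higher and 5 lower in differentiating *Kat6a*-/- vs. *Kat6a*+/+ NSPCs (limma, FDR under 0.05). Reads of Y-linked genes were found in each condition in 3 of the 4 *Kat6a*+/+, 1 of the 4 *Kat6a*+/- and 1 of the 4 *Kat6a*-/- libraries, so that sex and genotype were partly confounded. The Y-linked reads matched between conditions for 5 of the 6 shared embryo labels and went against the label for 1, shared by the libraries labelled *Kat6a*+/+ replicate 1. These reads were present in the differentiating and absent in the proliferating replicate 1, and the reverse in *Kat6a*+/+ replicate 2, whose litter numbers in the 2 conditions differ by 2 exchanged digits. Which of these labels is wrong was not determined. All of them name *Kat6a*+/+ embryos, and results are also given without *Kat6a*+/+ replicates 1 and 2, an alternative chosen after seeing the data. The summed level of 8 proliferation markers was 2813 to 3130 CPM in proliferating *Kat6a*+/+ and 1615 to 2871 CPM in proliferating *Kat6a*-/- NSPCs. In differentiating NSPCs it was 631 to 1068 CPM in *Kat6a*+/+, 630 to 1058 CPM in *Kat6a*+/- and 96.4 to 251.6 CPM in *Kat6a*-/-, with all 8 markers at or above 1 CPM in each group. The 7 astrocyte markers summed to 128 to 174 CPM in proliferating *Kat6a*+/+ and 340 to 456 CPM in proliferating *Kat6a*-/- NSPCs, and to 767 to 1438 and 597 to 3874 CPM in differentiating NSPCs. The 3874 CPM was that of *Kat6a*-/- replicate 2, and the next highest, 1871 CPM, that of *Kat6a*-/- replicate 4. The 7 microglial markers summed to 1.23 to 1.40 CPM in proliferating *Kat6a*+/+ and 6.53 to 8.52 CPM in proliferating *Kat6a*-/- NSPCs, with 1 marker of the 7 at or above 1 CPM and *C1qa* and *C1qb* without a count in either group, and to at most 1.68 CPM in differentiating NSPCs. The 6 endothelial markers summed to less in *Kat6a*-/- than in *Kat6a*+/+ NSPCs, at 3.91 to 7.34 against 7.58 to 13.5 CPM (proliferating) and 10.6 to 36.6 against 46.3 to 72.5 CPM (differentiating). Only 2 of the 6 were at or above 1 CPM in proliferating and 1 in differentiating NSPCs of these genotypes. Of the 3 and 1 that were tested, 1 was lower in each condition (limma, FDR under 0.05). The 8 mesenchymal markers summed to 32.6 to 65.7 CPM in differentiating *Kat6a*+/+ NSPCs. In *Kat6a*-/- replicates 1 to 4 they summed to 277.7, 42.8, 259.3 and 178.4 CPM. The 4 that were tested were all higher in *Kat6a*-/- NSPCs (limma, FDR under 0.05). The 7 oligodendrocyte markers summed to 1193 to 1414 and 689 to 1223 CPM in the same 2 groups, and the 8 neuronal markers to 542 to 735 and 467 to 770 CPM. Although the neuronal sums overlapped, 5 of the 8 markers were lower and 1 higher by the same test (median log2 fold-change −1.46). In bulk RNA, fewer cells of a type and less RNA per cell cannot be told apart.

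Levels of different genes were compared per gene length, as CPM per kilobase of counted gene (RPKM, scaled over the 24 libraries), in *Kat6a*+/+ NSPCs. In proliferating NSPCs the targeted gene was the most abundant of the 9, with *Kat6a* at 43.3 ± 1.84 RPKM (SD, n = 4). *Ing4* followed at 29.8 ± 2.08, *Kat7* at 24.2 ± 0.564, *Brd1* at 21.4 ± 0.911 and *Brpf1* at 17.9 ± 0.883 RPKM, and none of these 5 genes overlapped its neighbour in the order. *Meaf6* (10.5 ± 0.554), *Brpf3* (9.85 ± 1.19), *Ing5* (8.20 ± 0.558) and *Kat6b* (7.27 ± 0.351 RPKM) came last, and each of these overlapped the next. *Kat6a* was thus the more abundant of the 2 KAT6 paralogs, and *Kat6b* the lowest of the set.

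In differentiating *Kat6a*+/+ NSPCs the order of the levels was different. *Ing4* was now first at 48.1 ± 2.40 RPKM, ahead of *Kat6a* at 29.3 ± 2.65 and *Brd1* at 19.6 ± 1.06 RPKM. *Kat7* (13.25 ± 0.628) and *Brpf1* (12.2 ± 0.537) overlapped, *Kat6b* (11.05 ± 0.529) lay below them, *Meaf6* (9.08 ± 0.587) and *Brpf3* (8.29 ± 0.141) overlapped, and *Ing5* was last at 2.70 ± 0.384 RPKM. Among all tested genes, *Kat6a* stood at percentile 86.1 of the *Kat6a*+/+ levels in proliferating and 80.4 in differentiating NSPCs, and *Ing5* at 40.8 and 23.0.

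**Figure D1:**
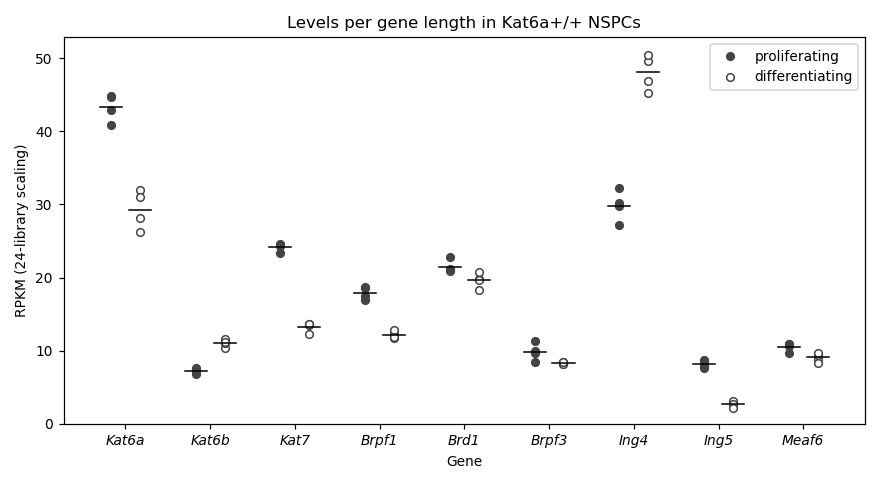
RPKM (vertical axis, scaled over the 24 libraries) of the 9 genes in the 4 proliferating (filled) and 4 differentiating (open) *Kat6a*+/+ NSPC libraries, with lines at the means. *Kat6a* leads in proliferating NSPCs (40.9 to 44.8 RPKM), *Ing4* in differentiating NSPCs (45.3 to 50.5 RPKM), and *Ing5* falls to 2.17 to 3.07 RPKM.

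To ask how the set changes when NSPCs are moved to differentiation medium, the 2 conditions were compared in *Kat6a*+/+ NSPCs. Of the 9 genes, 7 were differentially expressed (limma-voom, FDR under 0.05), 2 higher and 5 lower in differentiating NSPCs, against 72.9% of the 13590 genes tested (36.7% higher and 36.2% lower). The libraries of the 2 conditions did not overlap for any of the 9, against 71.9% of all genes. The share of members called is thus near that of all genes. The acetyltransferase genes moved in opposite directions: *Kat6b* rose (log2 fold-change 0.60, SE 0.0731, FDR = 2.55e-07), while *Kat6a* fell by 0.57 on the log2 scale (SE 0.109, FDR = 8.72e-05) and *Kat7* fell by 0.87 (SE 0.0652, FDR = 2.42e-10). The reader genes also parted, as *Ing4* rose (0.70, SE 0.0841, FDR = 2.11e-07) and *Ing5* fell by 1.65 (SE 0.152, FDR = 4.61e-09), to 0.32 times its proliferating level. Of the scaffold genes, *Brpf1* fell by 0.56 (SE 0.0891, FDR = 8.12e-06). *Brpf3* fell by 0.25 (SE 0.107, FDR = 0.0440), a call that was lost in 19 of 24 fits that each left out 1 library (highest FDR 0.228, without proliferating *Kat6a*+/+ replicate 3). *Brd1* (log2 fold-change −0.13, SE 0.0868, FDR = 0.179) and *Meaf6* (−0.21, SE 0.120, FDR = 0.122) did not pass the test. Leaving out any single library, or both *Kat6a*+/+ replicates 1 and 2 of each condition, kept the other 6 calls (*Brpf3* without both, FDR = 0.250), and the difference cannot be told apart from that of the RNA kits.

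The targeted gene was examined first among the genotype comparisons. *Kat6a* (Entrez 244349) lies at chr8:23349545-23433275 on the plus strand of GRCm39, the build of the counts, and its span overlaps *Ap3m2* on the minus strand. Whether the counting used strand was not given in the sources used here. The null allele lacks 5 exons, numbers 4 to 8 of the 17-exon transcript, which lie between positions 23397662 and 23404403 of chromosome 8 and are coding. They hold 770 of the 9116 bases over which *Kat6a* was counted, or 8.45%, and 770 leaves a remainder of 2 when divided by 3. If exon 3 is joined to exon 9, the reading frame shifts and meets a stop codon 26 bases after the join, counting its last base, after 244 codons in place of 2003. This stop lies in exon 9, at the place of codon 502 of the intact reading frame, and transcripts of the null allele cannot be read from counts per gene. The sequence such a join would give is shown beside that of the intact allele, which reads into exon 4. Both lines start with the last 15 bases of exon 3 on the plus strand of GRCm39 and are written 5′ to 3′, and the capitals mark the new in-frame stop codon.
Exon 3 joined to exon 9: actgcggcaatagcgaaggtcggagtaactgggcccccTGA
Exon 3 joined to exon 4: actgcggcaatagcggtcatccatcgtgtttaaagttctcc

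**Figure D2:**
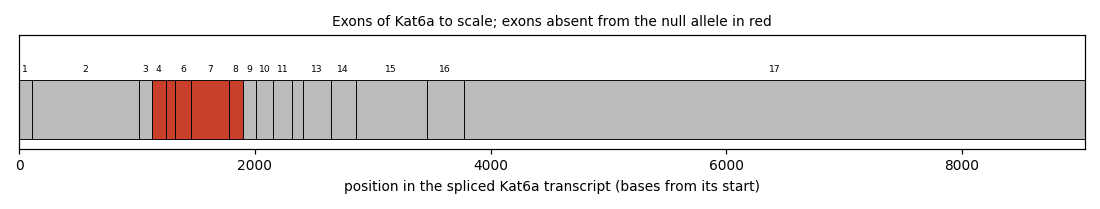
The 17 exons of the *Kat6a* transcript to scale along the spliced transcript (horizontal axis, bases from its start), with exons 4 to 8, absent from the null allele, in red. The red exons are 770 bases long, and most of the counted length lies outside them.

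The deposited tables hold 1 count for each gene, so reads of the deleted exons could not be separated from those of the rest. With even coverage and unchanged transcript abundance, losing these bases would change the gene count by −0.13 on the log2 scale in *Kat6a*-/- and by −0.06 in *Kat6a*+/- NSPCs. Proliferating *Kat6a*+/+ replicates 1 to 4 held *Kat6a* at 398.9, 391.7, 404.8 and 377.7 CPM, and *Kat6a*-/- replicates 1 to 4 at 396.5, 361.9, 345.1 and 343.9 CPM. Replicates 2 to 4 of *Kat6a*-/- lay below the *Kat6a*+/+ range, and replicate 1 within it. The log2 fold-change was −0.13 (SE 0.0555, FDR = 0.100). The *Kat6a* count therefore does not check the genotype labels, and the part of the deleted bases in its differences was not tested.

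Whether RNA of the remaining enzymes and shared subunits is altered in dividing cells without KAT6A was asked by comparing proliferating *Kat6a*-/- vs. *Kat6a*+/+ NSPCs. Of the 9 genes, 4 were differentially expressed: the paralog *Kat6b* was higher, and *Kat7* and the scaffolds *Brpf1* and *Brd1* were lower. The background is 30.0% of 12276 genes tested, 16.2% higher and 13.8% lower. The same 4 genes were those whose *Kat6a*-/- and *Kat6a*+/+ libraries did not overlap, against 30.8% of all genes. The median log2 fold-change over the 9 genes was −0.13, which is the value of the targeted gene *Kat6a* itself, and that of all genes −0.0045. With 9 genes, a count of 4 is not far from this background, and no log2 fold-change of the 9 went beyond −0.26 or 0.22. In these libraries the summed astrocyte and microglial markers given above were higher in each *Kat6a*-/- library than in any *Kat6a*+/+ library. The endothelial sums, which hold few expressed markers, were lower in the same way. The part of these markers in the results was not tested.

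*Kat6b*, at chr14:21531502-21722546 (GRCm39), was at 55.9, 57.2, 59.6 and 54.0 CPM in proliferating *Kat6a*+/+ NSPCs. It was at 63.3, 66.7, 63.1 and 73.2 CPM in *Kat6a*-/- NSPCs, all 4 above the *Kat6a*+/+ range. The rise was 0.22 on the log2 scale (SE 0.0637, FDR = 0.0186), or 1.17-fold. *Kat7*, at chr11:95165085-95201072, was at 145.4, 149.8, 149.6 and 144.8 CPM in *Kat6a*+/+ libraries and at 133.7, 127.0, 127.7 and 115.8 CPM in *Kat6a*-/- NSPCs. All 4 *Kat6a*-/- libraries lay below the *Kat6a*+/+ range, and *Kat7* fell by 0.22 (SE 0.0560, FDR = 0.0102), to 0.86 times its *Kat6a*+/+ level. The 2 paralogs that remain in *Kat6a*-/- NSPCs thus differed in direction.

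*Brpf1*, the scaffold at chr6:113283799-113301824, was at 88.9, 92.0, 85.2 and 83.9 CPM in proliferating *Kat6a*+/+ libraries and at 73.1, 74.3, 76.1 and 65.9 CPM in *Kat6a*-/- NSPCs. The groups did not overlap, and *Brpf1* fell by 0.26 (SE 0.0769, FDR = 0.0222). *Brd1*, the BRPF2 gene at chr15:88571232-88618518, was at 104.5, 117.2, 107.1 and 110.1 CPM in *Kat6a*+/+ libraries and at 103.5, 100.0, 88.8 and 81.6 CPM in *Kat6a*-/- NSPCs. Its groups were separated by less than the spread within either of them, and *Brd1* fell by 0.23 (SE 0.0742, FDR = 0.0320). *Brpf3*, at chr17:29004247-29058923, ranged from 51.0 to 67.3 CPM in *Kat6a*+/+ and from 56.0 to 67.4 CPM in *Kat6a*-/- NSPCs, with a log2 fold-change of 0.06 (95% confidence interval −0.21 to 0.33, FDR = 0.761).

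The genes of the small subunits did not pass the test in proliferating NSPCs. *Ing4*, at chr6:125016723-125026228, had a log2 fold-change of 0.17 (SE 0.0717, FDR = 0.0810), with 44.1 to 52.9 CPM in *Kat6a*+/+ and 50.7 to 58.6 CPM in *Kat6a*-/- libraries. *Ing5*, at chr1:93731626-93749834, was at 34.3 to 39.7 CPM in *Kat6a*+/+ libraries. In *Kat6a*-/- replicates 1 and 4 it was at 27.8 and 24.6 CPM, below that range, and in replicates 2 and 3 at 35.5 and 36.3 CPM, within it (log2 fold-change −0.23, SE 0.113, FDR = 0.134). *Meaf6*, at chr4:124978889-125010762, had a log2 fold-change of 0.00 (95% confidence interval −0.20 to 0.21, FDR = 0.983).

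The 4 calls were not equally firm. *Kat7* kept its call in each of the 12 fits without 1 library (FDR 0.00730 to 0.0291). *Kat6b* lost it without *Kat6a*+/+ replicate 1 (FDR = 0.0616), *Kat6a*+/+ replicate 4 (0.0552) or *Kat6a*-/- replicate 4 (0.0555). *Brpf1* lost it without *Kat6a*+/+ replicate 1 (0.0575), *Kat6a*+/+ replicate 2 (0.0552) or *Kat6a*-/- replicate 4 (0.0524), and *Brd1* without *Kat6a*+/+ replicate 1 (0.0502), 2 (0.0784) or 4 (0.0793) or *Kat6a*-/- replicate 3 (0.0936) or 4 (0.0913). *Ing4* passed the test without *Kat6a*+/+ replicate 4 (0.0451) or *Kat6a*-/- replicate 3 (0.0497). With litter as a fixed term, which compares the genotypes within litters, all 4 calls were lost: the log2 fold-change was 0.21 for *Kat6b* (FDR = 0.111), −0.20 for *Kat7* (0.0712), −0.21 for *Brpf1* (0.150) and −0.18 for *Brd1* (0.171). With a term for Y-linked reads only *Kat7* was still called. Without both *Kat6a*+/+ replicates 1 and 2, whose labels are in doubt, none was called, with log2 fold-changes of 0.21 for *Kat6b* (FDR = 0.156) and −0.22 for *Kat7* (0.0981), *Brpf1* (0.188) and *Brd1* (0.168), and 941 in place of 3686 genes were called. With the labels of these 2 libraries exchanged, also chosen after seeing the data, the 4 calls stood.

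**Figure D3:**
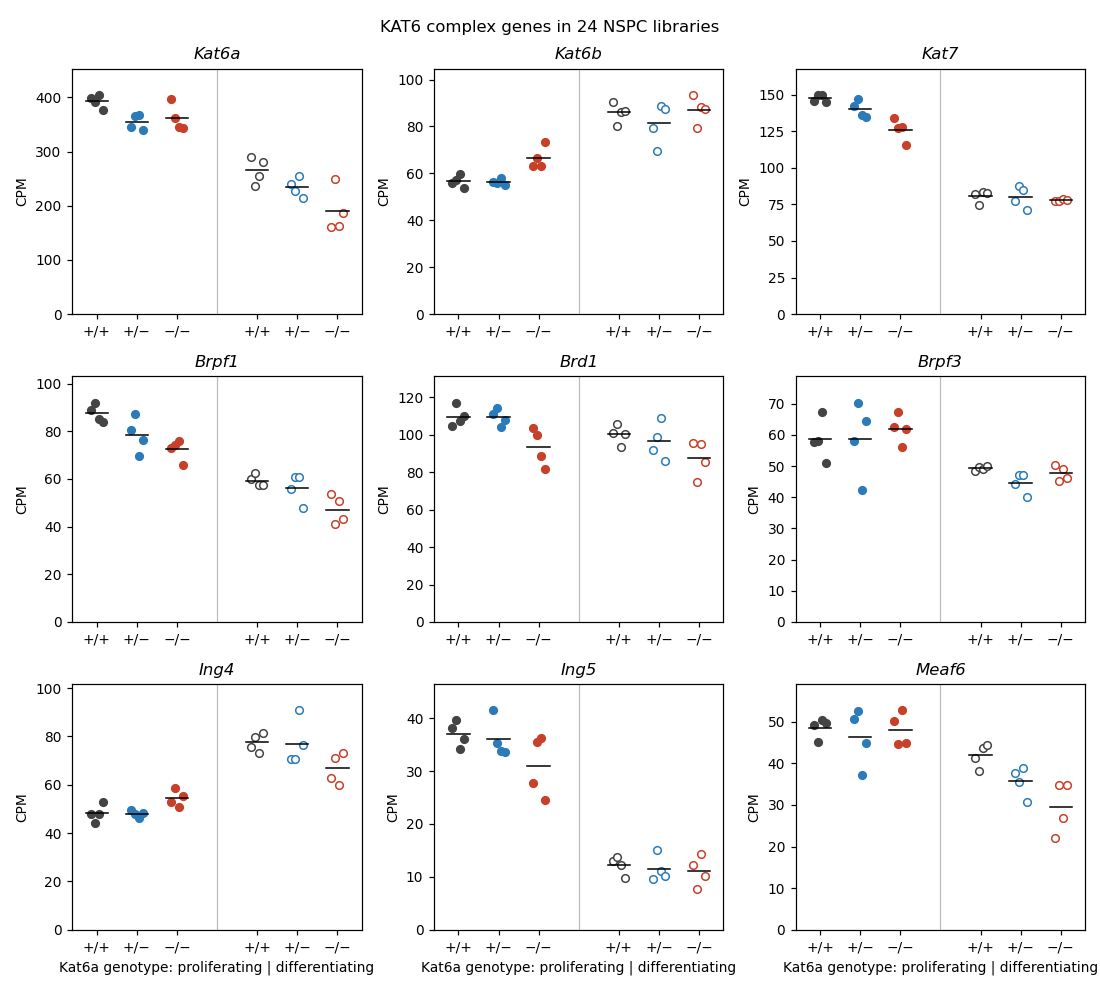
CPM (vertical axes, from 0) of each of the 9 genes in all 24 libraries by *Kat6a* genotype, proliferating at the left (filled) and differentiating at the right (open), with lines at the group means. In proliferating NSPCs the *Kat6a*-/- libraries lie above the *Kat6a*+/+ range for *Kat6b* (63.1 to 73.2 CPM) and below it for *Kat7* (115.8 to 133.7 CPM), *Brpf1* and *Brd1*.

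The promoters of these 4 genes are shown because they are the members whose RNA differed in dividing *Kat6a*-/- NSPCs. RefSeq entries on GRCm38.p6, from 250 bases before to 50 bases after the annotated start, matched 8 of the 9 genes, and *Kat6a* had none in the table used. Each was searched on both strands for GGGCGG (bound by SP and KLF factors), CCAAT (NF-Y), CCGGAAGT (ETS factors), TGACGTCA (CREB) and AAGATGGC (YY1). Matches of a motif may share bases with each other. The sequences are written 5′ to 3′ on the strand of the gene, and capitals mark the matches.
*Kat6b*, chr14:21499520-21499819, plus strand: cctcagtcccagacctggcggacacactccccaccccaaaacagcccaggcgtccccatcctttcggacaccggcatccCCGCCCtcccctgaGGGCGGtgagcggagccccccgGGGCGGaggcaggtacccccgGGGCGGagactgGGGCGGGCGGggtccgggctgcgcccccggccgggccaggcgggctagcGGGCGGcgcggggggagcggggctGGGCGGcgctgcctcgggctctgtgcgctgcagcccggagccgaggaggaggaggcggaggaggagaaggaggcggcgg
*Kat7*, chr11:95310197-95310496, minus strand: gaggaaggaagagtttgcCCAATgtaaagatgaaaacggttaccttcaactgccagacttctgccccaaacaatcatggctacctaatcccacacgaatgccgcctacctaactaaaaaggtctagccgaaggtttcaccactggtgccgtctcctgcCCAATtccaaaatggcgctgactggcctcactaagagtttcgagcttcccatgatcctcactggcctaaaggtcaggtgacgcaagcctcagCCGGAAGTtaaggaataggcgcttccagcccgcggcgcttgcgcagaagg
*Brpf1*, chr6:113306887-113307186, plus strand: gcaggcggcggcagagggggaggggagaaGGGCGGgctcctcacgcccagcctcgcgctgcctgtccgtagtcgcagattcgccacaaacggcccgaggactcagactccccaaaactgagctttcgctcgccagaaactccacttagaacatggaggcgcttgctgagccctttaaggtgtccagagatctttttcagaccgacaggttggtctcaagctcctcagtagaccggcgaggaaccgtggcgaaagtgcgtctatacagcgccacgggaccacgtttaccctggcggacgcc
*Brd1*, chr15:88734170-88734469, minus strand: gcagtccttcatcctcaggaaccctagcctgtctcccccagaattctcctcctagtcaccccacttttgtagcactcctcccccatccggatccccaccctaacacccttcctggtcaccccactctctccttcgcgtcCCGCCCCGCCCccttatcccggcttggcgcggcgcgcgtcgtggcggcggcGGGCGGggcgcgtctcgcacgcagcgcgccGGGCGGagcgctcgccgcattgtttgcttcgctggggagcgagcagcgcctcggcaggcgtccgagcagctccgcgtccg

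The 4 promoters differed in base composition. The *Kat6b* promoter was 78.3% G or C with 32 CpG dinucleotides and 8 matches of GGGCGG, the *Brd1* promoter 70.0% with 36 CpG and 4 matches, and the *Brpf1* promoter 61.7% with 25 CpG and 1 match. The *Kat7* promoter, at 53.0% with 14 CpG, had no GGGCGG but 2 CCAAT and 1 CCGGAAGT. Over all 32851 promoters of the table the median was 52.7% G or C with 7 CpG, and 35.7% held GGGCGG, 37.4% CCAAT and 3.89% CCGGAAGT, while 1.79% held TGACGTCA and 2.75% AAGATGGC, which had no match in the 4 promoters. A match describes the letters and not a bound site.

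The same question was asked in differentiating *Kat6a*-/- vs. *Kat6a*+/+ NSPCs, where 4 of the 9 genes were differentially expressed (limma-trend), all lower: *Kat6a*, *Meaf6*, *Ing4* and *Brpf1*. The background is 54.4% of 13339 genes tested, 26.7% higher and 27.7% lower, so 4 of 9 is near the share of all genes. Non-overlapping libraries were found for *Brpf1*, *Ing4* and *Meaf6*, against 26.9% of all genes. The median log2 fold-change was −0.08 over the 9 genes and −0.02 over all genes. In these libraries the summed proliferation and endothelial markers given above were lower in each *Kat6a*-/- library than in any *Kat6a*+/+ library. The summed NSPC markers were higher in each, although 5 of these 9 markers were lower and 3 higher (limma, FDR under 0.05). The oligodendrocyte sums were lower with a narrow overlap, and the mesenchymal sums higher in all *Kat6a*-/- libraries but replicate 2. Of the 8 neuronal markers 5 were lower and 1 higher. The part of these markers in the results was not tested.

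*Kat6a* was at 290.2, 236.3, 255.7 and 280.5 CPM in differentiating *Kat6a*+/+ libraries and at 160.4, 249.8, 163.3 and 186.6 CPM in *Kat6a*-/- NSPCs. *Kat6a*-/- replicate 2 lay inside the *Kat6a*+/+ range and the other 3 below it. *Kat6a* fell by 0.69 on the log2 scale (SE 0.0827, FDR = 3.33e-05). This fit weights libraries by quality, and in the *Kat6a*-/- group it gave replicate 3 69.0% and replicate 2 4.22% of the weight. Without the weights *Kat6a* fell by 0.50 (FDR = 0.0185).

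*Meaf6* was at 41.2, 38.2, 43.8 and 44.4 CPM in *Kat6a*+/+ libraries and at 22.0, 34.7, 26.9 and 34.8 CPM in *Kat6a*-/- NSPCs. No *Kat6a*-/- library reached the *Kat6a*+/+ range, and *Meaf6* fell by 0.64 (SE 0.0932, FDR = 0.000122), to 0.64 times its *Kat6a*+/+ level. *Ing4* was at 75.7, 79.8, 73.3 and 81.3 CPM in *Kat6a*+/+ libraries and at 62.9, 71.2, 59.8 and 73.1 CPM in *Kat6a*-/- NSPCs. Its highest *Kat6a*-/- library came close to the lowest *Kat6a*+/+ library, and *Ing4* fell by 0.29 (SE 0.0723, FDR = 0.00455). *Ing4* was not called by edgeR (FDR = 0.120), DESeq2 (0.130) or limma without weights (0.117).

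*Brpf1* was at 59.9, 62.6, 57.3 and 57.5 CPM in differentiating *Kat6a*+/+ libraries and at 53.7, 41.0, 50.7 and 43.1 CPM in *Kat6a*-/- NSPCs, again without overlap. It fell by 0.24 (SE 0.0686, FDR = 0.0109), and it was the only gene of the 9 that was called in *Kat6a*-/- vs. *Kat6a*+/+ NSPCs in both conditions. The other scaffold genes were not called, with *Brd1* at −0.08 (95% confidence interval −0.21 to 0.05) and *Brpf3* at −0.01 (−0.10 to 0.09). Nor were the paralogs, with *Kat6b* at 0.02 (−0.10 to 0.13) and *Kat7* at −0.06 (−0.17 to 0.04). *Kat6b* was at 90.6, 80.2, 86.3 and 86.7 CPM in *Kat6a*+/+ libraries, and the *Kat6a*-/- libraries, at 93.5, 79.5, 88.3 and 87.3 CPM, spanned that range. *Ing5* was at 9.79 to 13.8 CPM in *Kat6a*+/+ libraries and at 7.75 to 14.4 CPM in *Kat6a*-/- NSPCs (log2 fold-change 0.10, SE 0.144, FDR = 0.590).

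All 4 calls in differentiating NSPCs were lost without *Kat6a*-/- replicate 1, and likewise without replicate 3. Without replicate 1 none of the 9 genes was called, with log2 fold-changes of −0.41 for *Kat6a* (FDR = 0.152), −0.44 for *Meaf6* (0.0794), −0.20 for *Ing4* (0.403) and −0.37 for *Brpf1* (0.0928). Without replicate 3 they were −0.35 (0.250), −0.47 (0.122), −0.14 (0.622) and −0.38 (0.124), and *Ing5* moved to −0.40. The fall of *Brpf1* was larger in each of these fits than with every library (−0.24). Over all genes, 7258 were called with every library, 1212 without replicate 1 and 939 without replicate 3. Why the calls were lost was not tested. With litter as a fixed term only *Meaf6* was called, and *Kat6a* was at −0.64 (FDR = 0.0542). Without *Kat6a*+/+ replicates 1 and 2, *Brpf1* lost its call (−0.21, FDR = 0.106) and the other 3 genes kept theirs. Scaled by library totals alone, 7 of the 9 genes were called, all lower, but the median of all genes moved from −0.02 to −0.17, and 2635 of 8304 calls were higher in place of 3562 of 7258. The added calls lay close to that median, with *Kat7* at −0.22, *Brpf3* at −0.16 and *Brd1* at −0.23.

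**Figure D4:**
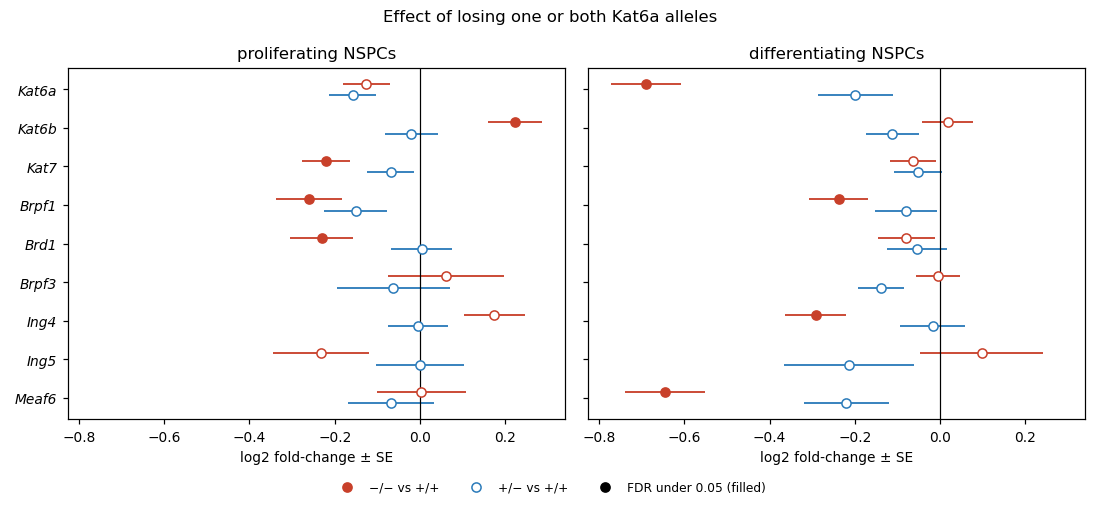
Log2 fold-change with its SE (horizontal axis) of the 9 genes in *Kat6a*-/- (red) and *Kat6a*+/- (blue) vs. *Kat6a*+/+ NSPCs, proliferating at the left and differentiating at the right, with filled points for an FDR under 0.05. The filled points are *Kat6b* (0.22), *Kat7*, *Brpf1* and *Brd1* (−0.22 to −0.26) at the left and *Kat6a*, *Meaf6*, *Ing4* and *Brpf1* (−0.24 to −0.69) at the right, and no *Kat6a*+/- point is filled.

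Losing 1 allele gave no call among the 9 genes in either condition. In proliferating *Kat6a*+/- vs. *Kat6a*+/+ NSPCs limma called 0% of all genes, and 912 genes (7.43%) had an unadjusted p under 0.05, among them 1 of the 9. That gene was *Kat6a*, at 346.2, 365.1, 368.4 and 340.5 CPM in *Kat6a*+/- NSPCs, all below the *Kat6a*+/+ libraries (log2 fold-change −0.16, SE 0.0558, FDR = 0.519). Groups without overlap made up 4.57% of all genes. *Brpf1* had −0.15 (SE 0.0741, FDR = 0.678), and the other 7 genes lay between −0.07 and 0.00. In differentiating *Kat6a*+/- NSPCs limma again called 0%, with 14.4% of genes at an unadjusted p under 0.05. Of the 9, *Kat6a* (−0.20, FDR = 0.331), *Brpf3* (−0.14, FDR = 0.279) and *Meaf6* (−0.22, FDR = 0.341) were among these. *Brpf3* was at 40.2 to 47.2 CPM in *Kat6a*+/- and at 48.4 to 49.98 CPM in *Kat6a*+/+ libraries, without overlap, against 2.86% of all genes. Neither edgeR nor DESeq2 called any of the 9 genes in these comparisons.

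*Kat6a*-/- NSPCs were also compared with *Kat6a*+/- NSPCs. In proliferating cells 2 of the 9 genes were called, against 14.8% of all genes (8.47% higher and 6.30% lower): *Kat6b* was higher (0.24, SE 0.0624, FDR = 0.0209) and *Brd1* lower (−0.23, SE 0.0716, FDR = 0.0429). *Kat6b* was at 55.2 to 58.2 CPM in the *Kat6a*+/- libraries, below every *Kat6a*-/- library. Libraries of *Kat7*, *Brd1* and *Ing4* did not overlap either, which makes 4 of 9 against 12.3% of all genes. The *Kat6b* call was lost without *Kat6a*+/- replicate 1 (FDR = 0.0606) or *Kat6a*-/- replicate 4 (0.0994), and that of *Brd1* in 8 of 12 fits without 1 library, all but those without *Kat6a*+/+ replicate 2, *Kat6a*+/- replicate 3 or *Kat6a*-/- replicate 1 or 2 (highest FDR 0.182, without *Kat6a*-/- replicate 4). *Kat7* (log2 fold-change −0.15, FDR = 0.0711) passed without *Kat6a*+/- replicate 3 (−0.18, FDR = 0.04998). In a fit with the replicate number as a block neither was called (FDR = 0.0662 and 0.0664), and *Brd1* was not called with the labels of *Kat6a*+/+ replicates 1 and 2 exchanged (0.0518) or without these libraries (0.0712). In differentiating cells 3 of 9 were called, against 37.5% of all genes (19.1% higher and 18.5% lower), all lower: *Kat6a* (−0.49, SE 0.0972, FDR = 0.00261), *Meaf6* (−0.42, SE 0.110, FDR = 0.0103) and *Ing4* (−0.27, SE 0.0850, FDR = 0.0246). The groups of each of these 3 genes overlapped, while 16.3% of all genes did not overlap. Without *Kat6a*-/- replicate 1 or 3 the FDR of these 3 genes was between 0.527 and 0.768. None of the 3 was called by edgeR (FDR 0.165 to 0.233), by DESeq2 (0.141 to 0.226), without weights (0.136 to 0.210) or with litter as a fixed term (0.138 to 0.326). With a term for Y-linked reads none of the 3 was called (0.0602 to 0.405) but *Brpf1* was (−0.31, FDR = 0.0363), and with limma-voom only *Kat6a* was called (0.0177). Once *Kat6a*-/- replicate 2 was left out, *Ing5* (0.39, FDR = 0.0236) and *Brpf1* (−0.17, FDR = 0.0442) passed. So did *Ing5* once *Kat6a*+/- replicate 2 was left out (0.42, FDR = 0.0389), and *Brpf1* once *Kat6a*+/- replicate 4 was (−0.24, FDR = 0.0455). Both sets of comparisons share the *Kat6a*-/- libraries with those against *Kat6a*+/+.

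An interaction term, fitted over the 24 libraries, tested whether *Kat6a*-/- NSPCs departed from *Kat6a*+/+ by the same amount in both conditions. Only *Ing4* of the 9 genes passed (difference of the log2 fold-changes −0.37, SE 0.122, FDR = 0.0476), against 13.9% of 13590 genes (6.36% with a positive and 7.58% with a negative difference). Its own log2 fold-changes were 0.17 (FDR = 0.0810) in proliferating and −0.29 in differentiating NSPCs. The call did not stand with the embryo (FDR = 0.0521) or the replicate number (0.0662) as a block, with no filter on low counts (0.0766), or without *Kat6a*+/+ replicates 1 and 2 of both conditions (−0.30, FDR = 0.387). It was also lost in 7 of 24 fits without 1 library, with the highest FDR, 0.0962, without proliferating *Kat6a*-/- replicate 2. The other 6 were those without differentiating *Kat6a*+/+ replicate 4 (0.0578), differentiating *Kat6a*-/- replicate 1 (0.0513) or 3 (0.0625), proliferating *Kat6a*+/+ replicate 1 (0.0604) or 2 (0.0803), or proliferating *Kat6a*-/- replicate 4 (0.0539). *Kat6b*, called in proliferating NSPCs alone, had an interaction of −0.18 (95% confidence interval −0.38 to 0.03, FDR = 0.267), so a difference between conditions was not shown. The same holds for *Kat7* (0.21, 0.03 to 0.39, FDR = 0.138), *Brd1* (0.08, −0.17 to 0.32, FDR = 0.732), *Kat6a* (−0.35, −0.65 to −0.05, FDR = 0.124) and *Meaf6* (−0.47, −0.82 to −0.12, FDR = 0.0860). Without differentiating *Kat6a*-/- replicate 2, *Kat6a* (−0.55, FDR = 0.00138) and *Meaf6* (−0.63, FDR = 0.0141) passed as well. *Meaf6* also passed without differentiating *Kat6a*+/+ replicate 2 (FDR = 0.0495), differentiating *Kat6a*-/- replicate 4 (0.0423) or proliferating *Kat6a*+/- replicate 3 (0.0455). The interaction for *Kat6a*+/- called 0% of all genes and none of the 9, with 3.03% of genes and none of the 9 at an unadjusted p under 0.05, and neither edgeR nor DESeq2 called any gene.

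Genes that can take the same place in the complex were then set against each other within a library, as a ratio of RPKM that does not depend on how libraries are scaled. The ratio of *Kat6b* to *Kat6a* was 0.163, 0.170, 0.171 and 0.166 in proliferating *Kat6a*+/+ and 0.186, 0.215, 0.213 and 0.248 in *Kat6a*-/- NSPCs, with no overlap. The *Kat6a*+/- libraries, at 0.179 to 0.189, lay above the *Kat6a*+/+ range. The difference of *Kat6a*-/- from *Kat6a*+/+ was 0.35 on the log2 scale (exact two-sided permutation test, p = 0.0286, adjusted p = 0.0762 over 8 ratio tests). With 4 against 4 libraries 0.0286 is the smallest p this test can give. In differentiating NSPCs the ratio was 0.360 to 0.395 in *Kat6a*+/+ and 0.679, 0.371, 0.630 and 0.545 in *Kat6a*-/- libraries, of which replicate 2 fell into the *Kat6a*+/+ range (difference 0.52, exact p = 0.0857, adjusted p = 0.114). A lower count from the deleted *Kat6a* exons raises this ratio.

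Among the scaffolds, the ratio of *Brpf3* to *Brpf1* was 0.652 to 0.713 in differentiating *Kat6a*+/+ and 0.769 to 0.908 in *Kat6a*-/- NSPCs, without overlap (log2 difference 0.29, exact p = 0.0286, adjusted p = 0.0762). The ratio of *Brd1* to *Brpf1* was 1.56 to 1.66 and 1.70 to 1.89 in the same libraries (0.14, exact p = 0.0286, adjusted p = 0.0762). In proliferating NSPCs the first of these ratios was 0.499 to 0.647 in *Kat6a*+/+ and 0.604 to 0.772 in *Kat6a*-/- libraries (0.36, exact p = 0.0571, adjusted p = 0.114), and the second differed by 0.04 (exact p = 0.629, adjusted p = 0.718). The ratio of *Ing5* to *Ing4* was 0.244 to 0.322 in proliferating *Kat6a*+/+ and 0.158 to 0.256 in *Kat6a*-/- libraries (−0.45, exact p = 0.0857, adjusted p = 0.114). In differentiating NSPCs the readers' ratio was 0.0430 to 0.0617 and 0.0389 to 0.0857 (0.06, exact p = 0.8, adjusted p = 0.8). None of the 8 differences passed after adjustment. Without *Kat6a*+/+ replicates 1 and 2 they ranged from 0.00, which has no direction, to 0.34 in proliferating and from 0.14 to 0.53 in differentiating NSPCs for the 3 ratios other than that of the readers. The difference of the readers' ratio was −0.31 and 0.20.

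**Figure D5:**
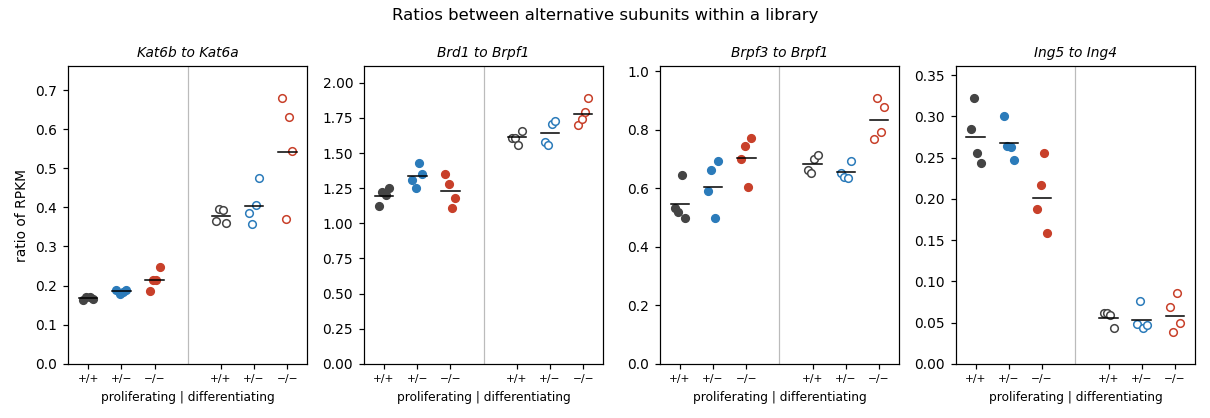
Ratio of RPKM within a library (vertical axes, from 0) for 4 pairs of genes that can take the same place in the complex, by *Kat6a* genotype, proliferating filled and differentiating open, with lines at the geometric means. The *Kat6b* to *Kat6a* ratio is 0.163 to 0.171 in proliferating *Kat6a*+/+ and 0.186 to 0.248 in *Kat6a*-/- libraries, and higher in all differentiating libraries, while *Ing5* to *Ing4* falls from at least 0.158 to at most 0.0857.

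The 9 genes were set beside 29 related genes: the other MYST enzymes *Kat5* and *Kat8*, the JADE scaffolds, *Ing1* to *Ing3*, and subunits of the KAT5 and KAT8 complexes. In proliferating *Kat6a*-/- vs. *Kat6a*+/+ NSPCs 0 of 29 were higher and 5 lower, against 16.2% and 13.8% of all genes, with a median log2 fold-change of −0.16. *Ruvbl2*, an ATPase of the KAT5 complex, fell by 0.58 (SE 0.131, FDR = 0.00602), and *Jade1*, a scaffold that can take the place of a BRPF in the KAT7 complex, fell by 0.47 (SE 0.0775, FDR = 0.000929). Both kept their calls in all 12 fits without 1 library, and *Ruvbl2* lost it without both *Kat6a*+/+ replicates 1 and 2 (FDR = 0.0762). Of the 3 JADE genes only *Jade1* was called. *Kat7* was also lower in these NSPCs, a call lost with litter as a fixed term and without both *Kat6a*+/+ replicates 1 and 2.

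In differentiating *Kat6a*-/- vs. *Kat6a*+/+ NSPCs 3 of the 29 related genes were higher and 18 lower, against 26.7% and 27.7% of all genes, with a median of −0.24, and 12 of the 13 KAT5 complex genes were among those lower. *Mbtd1*, a KAT5 complex reader of methylated histones, fell by 0.81 (SE 0.102, FDR = 4.45e-05), and the ATPase *Ep400* by 0.52 (SE 0.0650, FDR = 4.53e-05). *Jade2* was higher by 0.53 (SE 0.0948, FDR = 0.000556) and *Jade1* by 0.32 (SE 0.0990, FDR = 0.0160). These counts fell without the same libraries as those of the 9 genes. Without *Kat6a*-/- replicate 1, and likewise without replicate 3, 0 were higher and 1 lower, and of the 4 named genes only *Mbtd1* kept its call (FDR at most 0.0347). *Jade1* also lost it without *Kat6a*+/+ replicate 1 (FDR = 0.0548), 3 (0.0677) or both 1 and 2 (0.0768). In *Kat6a*+/- vs. *Kat6a*+/+ NSPCs none of the 29 was called in either condition.

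Against *Kat6a*+/- NSPCs, 0 of the 29 genes were higher and 3 lower in proliferating *Kat6a*-/- NSPCs (8.47% and 6.30% of all genes), with *Ruvbl2* at −0.46 (FDR = 0.0298) and *Ing1* at −0.38 (FDR = 0.0115). Without *Kat6a*-/- replicate 4 neither was called (FDR = 0.169 and 0.0532), and *Ruvbl2* also lost its call without *Kat6a*-/- replicate 1 (0.0516) or *Kat6a*+/- replicate 1 (0.0971), 2 (0.0555) or 3 (0.0549). In differentiating NSPCs 3 were higher and 10 lower (19.1% and 18.5% of all genes), led by *Jade1* (0.61, FDR = 0.00222) and *Morf4l1* (0.28, FDR = 0.0101) upwards and by *Mbtd1* (−0.49, FDR = 0.00782) and *Ruvbl2* (−0.47, FDR = 0.00298) downwards. None of these 4 was called without *Kat6a*-/- replicate 1 or 3 (lowest FDR 0.110), nor *Morf4l1* without *Kat6a*+/- replicate 1 (0.0887). Between conditions in *Kat6a*+/+ NSPCs 1 of the 29 was higher and 19 lower in differentiating cells, against 36.7% and 36.2% of all genes. *Jade2* was higher by 1.905 (SE 0.217, FDR = 9.54e-08), and *Jade3* (−1.91, SE 0.187, FDR = 1.08e-08) and *Phf20* (−1.52, SE 0.108, FDR = 1.15e-10) were lower. The interaction with *Kat6a*-/- was called for 3 of the 29, against 13.9% of all genes: *Jade1* (0.67, SE 0.180, FDR = 0.0163), *Phf20* (0.57, SE 0.155, FDR = 0.0179) and *Mrgbp* (−0.48, SE 0.131, FDR = 0.0170). None of the 3 was called without *Kat6a*+/+ replicates 1 and 2 (FDR 0.127 to 0.232).

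The genes whose pattern was most like that of 3 members were found by Pearson's r of log2 CPM over the 24 libraries, each value taken relative to the mean of its condition. The libraries share litters and differ in genotype and depth, so r is given as a description. For *Kat6a* they were *Vangl2* (r = 0.934), *Septin3* (0.931) and *Klf12* (0.927). The genes nearest to *Kat6b* were *Arl9* (0.729), *Grin2c* (0.712) and *Ctsf* (0.707), a looser likeness than for *Kat6a*. For *Brpf1* they were the splicing factor gene *Prpf8* (0.889), *Slc29a4* (0.888) and *Paxip1* (0.875).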

How the data were processed

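Per the study's methods, the authors aligned reads to mm39 with Rsubread and deposited raw counts per gene for each library, made by featureCounts with a strict RefSeq annotation. The versions and the strand setting are not given in the sources used here. Of 26411 genes per table, 21030 were protein-coding by Entrez identifier and 52 had no biotype and were left out. Genes passing filterByExpr were kept, without *Xist* and Y-linked genes, which left 12276 (proliferating), 13339 (differentiating) and 13590 genes (24 libraries), and were scaled by TMM in edgeR 4.0.16. As in the study's methods, limma 3.58.1 in R 4.3.3 fitted the 12 proliferating libraries with voom and litter as a random block (correlation 0.287) and the 12 differentiating libraries with limma-trend on log2 CPM (prior count 2) and quality weights. The study's gene numbers were not reproduced exactly. More genes were tested here in both conditions. For *Kat6a*-/- vs. *Kat6a*+/+ NSPCs clearly more were called in differentiating and slightly fewer in proliferating cells. All 24 libraries were fitted with voom and litter as a random block (correlation 0.00365), with a pair of litter numbers that differ by exchanged digits kept apart, though they may name 1 litter. Moderation was robust, and FDR was Benjamini-Hochberg over all genes tested. The 95% confidence intervals used the moderated SE and a normal distribution, and are somewhat narrower than those of the moderated t-test behind the FDR. CPM and RPKM were computed from the counts with TMM-scaled totals, within a condition unless stated, and the counted gene length.

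Named were all 9 genes, up to 2 called related genes each way per comparison and the 3 nearest genes of 3 members. The members, lists and tests were chosen with earlier results of these data known. Replicates were separate embryos by their labels, 1 of which the Y-linked reads contradict, and no 2 libraries of a group agreed within sampling noise (lowest chi-square per degree of freedom 5.81). Replicate numbers did not pair libraries. Alternatives were edgeR and DESeq2 1.42.0 tests, other scalings and filters, litter, replicate, embryo and Y-read terms, weights, and leaving out each library. The fits were tested on simulated counts with independent libraries of like quality and with changes larger than those of the 9 genes between genotypes. This does not show how they behave with litter effects, unequal library quality or small changes.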

Additional observations from a re-analysis of the deposited data

Results flagged for a closer look

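*Kat7* in differentiating *Kat6a*+/+ NSPCs had 1 library far from the others: replicate 2 was at 74.7 CPM and the other 3 at 82.1 to 83.3 CPM. The gap was 0.858 of the range of the group, above Dixon's 95% critical value for 4 libraries. This was 1 of 54 such tests over the 9 genes and 6 groups, and chance flags about 1 in 20.

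The interaction term, for a change in *Kat6a*-/- NSPCs that is not the same in both conditions, passed for *Ing4* among the 9 genes (−0.37, limma FDR = 0.0476) and for 3 related genes. The *Ing4* call was lost with the embryo (0.0521) or the replicate number (0.0662) as a block, with no filter on low counts (0.0766) and in 7 of 24 fits without 1 library (up to 0.0962). None of the 4 was called without *Kat6a*+/+ replicates 1 and 2 of both conditions, whose labels are in doubt (lowest FDR 0.127). *Jade1* had an interaction of 0.67, with log2 fold-changes of −0.47 in proliferating and 0.32 in differentiating *Kat6a*-/- NSPCs, and its call was lost without proliferating *Kat6a*-/- replicate 4 (limma FDR = 0.0543). *Phf20* had 0.57, with −0.44 (FDR = 0.0102) and 0.09 (FDR = 0.229), and its call was lost without proliferating *Kat6a*+/+ replicate 1 (0.0515), *Kat6a*-/- replicate 1 (0.0646) or *Kat6a*-/- replicate 4 (0.0584). *Mrgbp* had −0.48, with 0.15 (FDR = 0.189) and −0.35 (FDR = 0.00206), and kept its call in all 24 fits without 1 library.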

How the results depend on the processing

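The number of the 9 genes called in proliferating *Kat6a*-/- vs. *Kat6a*+/+ NSPCs (4) was 0 with litter as a fixed term and 1 with a term for Y-linked reads, and 1 to 4 without 1 library. For proliferating *Kat6a*-/- vs. *Kat6a*+/- NSPCs (2) it was 1 with edgeR, with no filter on low counts, with litter as a fixed term, with a term for Y-linked reads, without the litter block and with quality weights, and 0 to 3 without 1 library. In differentiating *Kat6a*-/- vs. *Kat6a*+/+ NSPCs (4) it was 7 with library totals and 1 with litter as a fixed term, and 0 to 4 without 1 library. In differentiating *Kat6a*-/- vs. *Kat6a*+/- NSPCs (3) it was 0 with edgeR, DESeq2, litter as a fixed term or no weights, 1 with no filter, a term for Y-linked reads or limma-voom, and 0 to 5 without 1 library, where 5 was reached without *Kat6a*-/- replicate 2. The interaction count (1) was 4 with library totals, which moved the median of all genes to −0.15, 0 with no filter or embryo as the block, and 0 to 3 without 1 library. Between conditions in *Kat6a*+/+ (7) it was 6 to 7. Without *Kat6a*+/+ replicates 1 and 2, an alternative added after the data were seen, the counts in the same order were 0, 1, 3, 3, 0 and 6, and the calls over all genes fell from 3686 to 941 in the first and from 1895 to 452 for the interaction. With the labels of these 2 libraries exchanged they were 4 and 1 in proliferating NSPCs, and 0 for the interaction with embryo as the block. The 2 look-alike litter numbers taken as one left the last 2 counts at 1 and 7, also with the labels exchanged. The cause of these changes was not tested. Over all genes, the 3686 calls in proliferating *Kat6a*-/- vs. *Kat6a*+/+ NSPCs became 1936 with litter as a fixed term. In proliferating *Kat6a*-/- vs. *Kat6a*+/- NSPCs 1813 became 951 with edgeR and 960 without the litter block. In differentiating *Kat6a*-/- vs. *Kat6a*+/+ NSPCs 7258 became 3244 with edgeR, 4076 with DESeq2, 1785 with litter as a fixed term, 3950 with the Y-read term and 3097 without weights. In differentiating *Kat6a*-/- vs. *Kat6a*+/- NSPCs 5007 became 1656, 2621, 386, 1605 and 1616 under the same settings, 2478 with limma-voom and 3031 with no filter, and with library totals 1869 of 5899 were higher in place of 2545 of 5007. For the interaction 531 of 2400 calls were positive with library totals, in place of 865 of 1895. For *Kat6a*+/- vs. *Kat6a*+/+ limma and edgeR called 0 genes and DESeq2 28 (proliferating) and 8 (differentiating). None of the 9 genes was called in these *Kat6a*+/- comparisons in any setting run. No value of a named gene with a call changed direction in any setting.

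Same-numbered libraries of different genotypes did not deviate together (median r of deviations −0.01 in proliferating and −0.17 in differentiating NSPCs), so the replicate numbers do not pair the libraries. With the replicate block the count of members was 0 in proliferating *Kat6a*-/- vs. *Kat6a*+/- NSPCs and 0 for the interaction, and 1183 genes were called in the former. It was 4, 4, 3, 6 and 0 for proliferating and differentiating *Kat6a*-/- vs. *Kat6a*+/+, differentiating *Kat6a*-/- vs. *Kat6a*+/-, the conditions and both *Kat6a*+/- vs. *Kat6a*+/+ comparisons, which changed no count by more than 1.5 times. Paired by number, or with 1 library left out (smallest p 0.0571), the ratio tests cannot reach a p under 0.05. Without 1 library, the log2 differences ranged from 0.28 to 0.42 for *Kat6b* to *Kat6a*, from −0.01 to 0.09 for *Brd1* to *Brpf1*, from 0.32 to 0.44 for *Brpf3* to *Brpf1* and from −0.56 to −0.33 for *Ing5* to *Ing4* in proliferating NSPCs, and from 0.41 to 0.70, 0.11 to 0.16, 0.25 to 0.33 and −0.12 to 0.26 in differentiating NSPCs.

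The lowest count of any of these genes in a library was 148. Each group held 4 libraries, and litter and sex were partly confounded with genotype. In the weighted fit of differentiating NSPCs, *Kat6a*-/- replicate 3 held most of the weight of its group. How far depth or any of these limits the results was not tested.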
